A study of Arabidopsis thaliana with 6 samples.

Results

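The transcripts described here came from 29 genes of cultured Arabidopsis thaliana cells that gave a bright signal on every control array and a signal near background on every isoxaben array. The 29 genes were measured by 30 probe sets, out of 22746 probe sets on the array and 13513 that the platform table assigns to exactly 1 gene. A probe set was taken when its signal was at least 100 on all 3 control arrays and under 25 on all 3 isoxaben arrays, so the measured values themselves chose these genes. The difference between the groups is therefore given as a description, with no test.

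The study compared cells grown in suspension with cells given 0.1 mM isoxaben, a herbicide that blocks cellulose synthesis, on Affymetrix ATH1 arrays. Both groups grew in Murashige and Skoog medium with 30 g/L sucrose, 0.5 mg/L of the synthetic auxin naphthalene acetic acid and 0.05 mg/L of the cytokinin kinetin. The labels name no ecotype or cell line, no length of exposure, and no treatment for the control cultures. Control array 1 and isoxaben array 1 carry the first title set, and arrays 2 and 3 of each group carry the second. The labels do not say whether the replicates were separate cultures, so the spread between arrays may be technical.

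The labels and array statistics set 2 arrays apart. Isoxaben array 1 is marked DCB in its source name, but isoxaben in its title and treatment label. It was kept in the isoxaben group by its title, and whether it had another treatment cannot be told. Control array 1 had 7023 outlier cells on the scanned image, where the other 5 arrays had 160 to 613. The size and median change of the set are given below without each of these arrays. For the tested genes outside the set, a value without them is given where it changes a call. Of the markers of root hair, xylem, phloem, guard cell, seed and leaf cells that were listed, 4 of 31 had a named probe set. The root hair expansins EXPA7 and EXPA18 stayed at or under 18.4 on every array, and the stomatal lineage factor SPCH at or under 5.2. FMA, another stomatal factor, reached 42.1 on control array 1 and lay at or under 23.1 on the other 5 arrays. Whether the members come from cells of 1 type in these cultures was not tested.

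Cellulose is spun out at the plasma membrane by cellulose synthase complexes, and isoxaben removes those complexes from the membrane. Plant cells that lose cellulose are known to remodel the remaining wall polymers and to alter lignin, hormone and stress programmes. A signal that is bright in control and near background with isoxaben marks a transcript that was readily seen in control cultures. In the treated ones it was barely seen, or not seen. In RNA from a whole culture, fewer cells of a type and less RNA per cell cannot be told apart.

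The signal limits were met by 62 probe sets, which is 0.273% of those on the array. Of these, 28 are unnamed here and 2 stand for several genes. The other 32 have 1 gene each, and leaving out ATSPS4F and GAT1_2.1 by name gave the 30. Of 6150 probe sets that reached 100 on every control array, 1.01% were under 25 on every isoxaben array. The opposite pattern, under 25 in all controls and at least 100 with isoxaben, was found for 53 probe sets, of which 25 have 1 gene. Across the whole array, 21.4% of probe sets were lower with isoxaben with no overlap between the groups, against which the 30 of 30 here are fixed by the limits.

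On the control arrays the 30 means ran from 103 to 941 with a median of 290, which put them between the 70.7th and 98.2nd percentile of all probe sets. On the isoxaben arrays the means ran from 0.667 to 22.4 with a median of 14.4, between the 1.79th and 40.5th percentile. Signals under 25 were common there, as 41.9% to 43.3% of all probe sets on an isoxaben array lay below that value. The files hold no detection calls, so a signal under 25 is near background but cannot be called absent. In the control group 1 gene had a mean above 800, 7 probe sets lay between 400 and 800, 13 between 200 and 400, and 9 under 200. In the isoxaben group 6 means lay under 5, 6 between 5 and 10, 15 between 10 and 20, and 3 above 20.

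**Figure D1:**
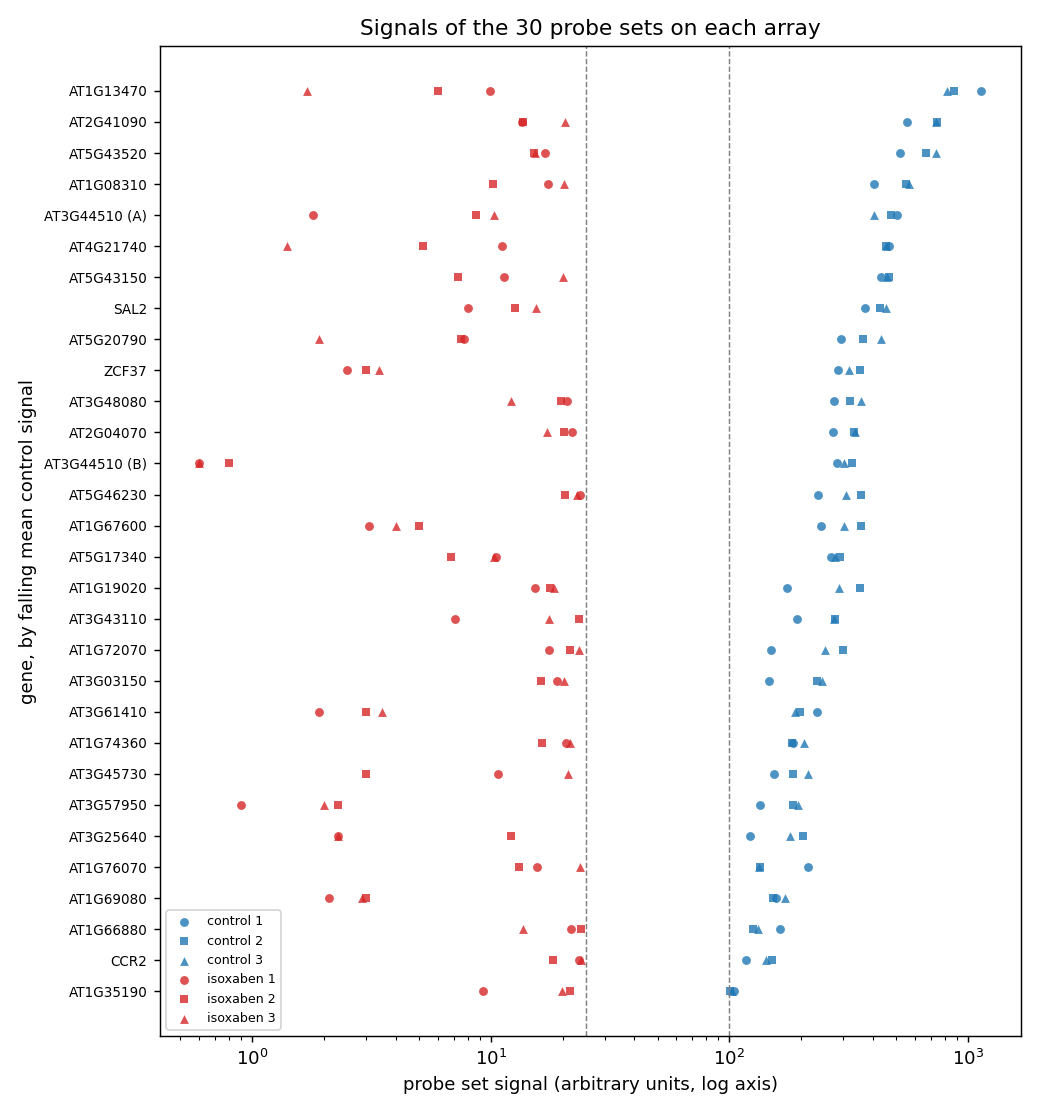
Signals of the 30 probe sets (rows, by falling mean control signal) on each of the 6 arrays, on a log axis in arbitrary units, with blue points for control and red for isoxaben arrays. Dashed lines mark the limits of 25 and 100, A and B are the brighter and the dimmer probe set of AT3G44510, and all blue points lie above 100 and all red points below 25 because the limits chose them so.

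Only 3 of the 30 probe sets belong to a gene with a name other than its locus. SAL2 belongs to a family of phosphatases that act on inositol phosphates and on phosphoadenosine phosphates. Its signals were 370.7, 427.0 and 455.3 on control arrays 1 to 3 and 8.0, 12.6 and 15.5 on isoxaben arrays 1 to 3. The control arrays lay close together, with a mean of 418 ± 43.1 (SD, n = 3), and the lowest control signal was 23.9 times the highest isoxaben signal.

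ZCF37 gave 284.7, 354.5 and 317.5 on the control arrays and 2.5, 3.0 and 3.4 on the isoxaben arrays. Its isoxaben signals had a mean of 2.97 ± 0.451 (SD, n = 3), at percentile 11.7 of the array. The lowest control signal was 83.7 times the highest isoxaben signal.

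CCR2, a cinnamoyl-CoA reductase that leads phenylpropanoid units towards lignin, was the dimmest of the named genes. Its signals were 117.6, 151.4 and 142.3 on the control arrays and 23.5, 18.2 and 23.9 on the isoxaben arrays. It lay near both limits, and its lowest control array was 4.92 times its highest isoxaben array.

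The other 27 probe sets belong to 26 genes that the annotation knows only by locus, so no function is given for them. The brightest was AT1G13470, at 1138.4, 871.5 and 813.4 on control arrays 1 to 3 and 9.9, 6.0 and 1.7 on isoxaben arrays 1 to 3. AT2G41090 gave 556.8, 745.3 and 733.2 on the control arrays and 13.5, 13.7 and 20.5 on the isoxaben arrays. In AT1G13470 the first array of each group was the highest, and in AT2G41090 it was the lowest. The signals of AT5G43520 were 519.8, 668.5 and 731.5 in control and 16.9, 15.2 and 15.3 with isoxaben. Those of AT1G08310 were 405.7, 550.4 and 567.7 in control and 17.3, 10.2 and 20.2 with isoxaben. Both had their lowest control signal on array 1.

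AT4G21740 and AT5G43150 were the steadiest of the bright genes. AT4G21740 gave 466.2, 453.4 and 453.9 in control, a coefficient of variation of 1.58%, and 11.2, 5.2 and 1.4 with isoxaben. AT5G43150 gave 431.0, 468.1 and 459.7 in control, a coefficient of variation of 4.3%, and 11.4, 7.3 and 20.0 with isoxaben. Their isoxaben signals ran from 1.4 to 11.2 and from 7.3 to 20.0. Relative to the mean, the isoxaben arrays spread more widely than the control arrays, though in signal units they spread less. The SD was 4.94 with isoxaben against 7.25 in control for AT4G21740, and 6.48 against 19.5 for AT5G43150 (n = 3). AT5G20790 was more variable in control, at 294.9, 361.8 and 430.2 in control and 7.7, 7.5 and 1.9 with isoxaben.

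AT3G44510 was the single gene of the set with a pair of probe sets, which share the same arrays. Which stretches of its transcripts they read was not examined. The brighter probe set gave 503.0, 476.5 and 404.7 in control and 1.8, 8.7 and 10.3 with isoxaben. The dimmer probe set gave 281.9, 327.8 and 301.2 in control and 0.6, 0.8 and 0.6 with isoxaben. Both met the limits, though they ordered the control arrays differently, with array 1 the highest by the brighter and the lowest by the dimmer. The dimmer probe set had the lowest isoxaben mean of all 30, at the 1.79th percentile of the array, and a ratio of lowest control to highest isoxaben signal of 352, against 39.3 for the brighter. No other gene of the set had a further probe set of its own.

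Among the genes with control means of 200 to 400, AT3G48080, AT2G04070 and AT5G46230 kept some of the higher signals with isoxaben. AT3G48080 gave 275.2, 320.9 and 357.0 in control and 20.8, 19.7 and 12.2 with isoxaben. AT2G04070 gave 272.6, 331.6 and 336.0 in control and 21.8, 20.2 and 17.2 with isoxaben. AT5G46230, at 236.1, 357.7 and 308.5 in control and 23.6, 20.5 and 23.0 with isoxaben, had the highest isoxaben mean of the set, 22.4 ± 1.64 (SD, n = 3). In all 3 genes, array 1 was the lowest in control and the highest with isoxaben.

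AT1G67600, AT5G17340 and AT3G61410 had lower isoxaben signals at similar or lower control levels. AT1G67600 gave 242.3, 355.3 and 301.8 in control and 3.1, 5.0 and 4.0 with isoxaben. AT5G17340 gave 267.6, 292.2 and 277.0 in control and 10.5, 6.8 and 10.3 with isoxaben. AT3G61410 gave 232.6, 197.7 and 187.8 in control and 1.9, 3.0 and 3.5 with isoxaben. For AT3G61410 the lowest control signal was 53.7 times the highest isoxaben signal, and for AT5G17340 it was 25.5 times.

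In AT1G19020, AT1G72070 and AT3G03150 control array 1 lay far below the other control arrays. AT1G19020 gave 174.0, 354.1 and 287.2 in control and 15.3, 17.7 and 18.5 with isoxaben. AT1G72070 gave 150.1, 299.9 and 252.0 in control and 17.6, 21.4 and 23.4 with isoxaben. AT3G03150 gave 146.3, 233.5 and 243.8 in control and 19.0, 16.3 and 20.2 with isoxaben. The first array was at 0.543, 0.544 and 0.613 of the mean of the other control arrays in the 3 genes. AT3G43110 was alike in control, at 191.4, 276.5 and 274.4, and gave 7.1, 23.5 and 17.5 with isoxaben.

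Of the dimmer genes, AT3G57950 and AT1G69080 had the lowest isoxaben signals. AT3G57950 gave 133.8, 185.6 and 194.3 in control and 0.9, 2.3 and 2.0 with isoxaben. AT1G69080 gave 157.4, 153.0 and 170.6 in control and 2.1, 3.0 and 2.9 with isoxaben. Both kept a lowest control signal more than 50 times the highest isoxaben signal, at ratios of 58.2 and 51.0. AT3G25640 gave 122.2, 204.3 and 180.2 in control and 2.3, 12.1 and 2.3 with isoxaben, so isoxaben array 2 alone stood higher. AT3G45730 gave 154.5, 184.1 and 213.5 in control and 10.7, 3.0 and 21.1 with isoxaben, the widest spread between isoxaben arrays in the set (SD 9.08, n = 3).

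AT1G74360, AT1G76070, AT1G66880 and AT1G35190 completed the set. AT1G74360 gave 185.7, 182.6 and 204.7 in control and 20.6, 16.4 and 21.4 with isoxaben. AT1G76070 gave 212.9, 134.1 and 133.5 in control and 15.6, 13.1 and 23.6 with isoxaben, with control array 1 at 1.59 times the mean of the other control arrays. AT1G66880 gave 162.9, 126.0 and 131.4 in control and 21.6, 23.8 and 13.7 with isoxaben. These 3 had ratios of lowest control to highest isoxaben signal of 8.53, 5.66 and 5.29. AT1G35190 was the dimmest in control, at 105.0, 101.0 and 103.0, and gave 9.3, 21.4 and 19.9 with isoxaben, a ratio of 4.72.

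Over the set, the lowest control signal exceeded the highest isoxaben signal by a median of 20.9 times. The ratio was at least 10 for 20 of the 30 probe sets, at least 50 for 6 and at least 100 for 1. Such ratios depend on small signals in the divisor, so differences were also taken on the log2(signal + 16) scale, which draws in values near background. On that scale the change of the 30 probe sets, isoxaben minus control, ran from -5.45 for AT1G13470 to -1.88 for AT1G35190, with a median of -3.35. The median over all 13648 tested probe sets was 0.00824. All 30 passed the filter on dim probe sets through their control signals, and all 30 were called lower in the fit across all probe sets, where 27.2% were. The limits chose the genes on this very contrast, so nothing is read from that count.

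Ranked by the change on this scale among the tested probe sets, 16 of the 30 were among the 50 deepest falls and 23 among the 100 deepest. The ranks ran from 6 for AT1G13470 to 331 for AT1G35190, so the limits did not select simply the deepest falls. A fall of at least 8-fold on the log2(signal + 16) scale was shown by 22 of the 30 and by 76 tested probe sets in all. A fall of at least 16-fold was shown by 10 of the 30 and by 29 in all. With a pseudocount of 1 the median change of the set was -4.97, and with 64 it was -2.12.

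**Figure D2:**
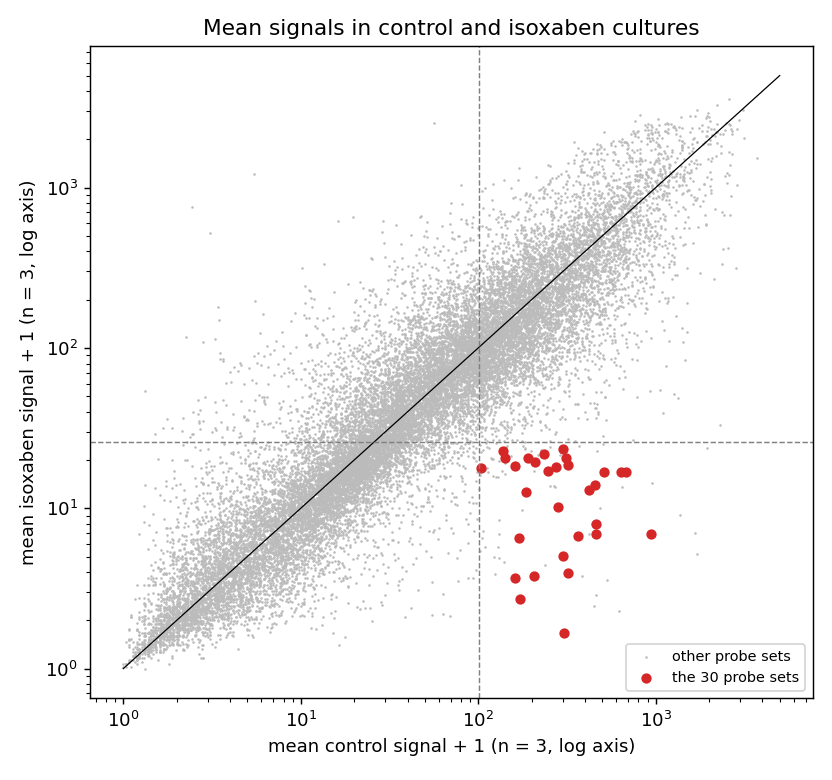
Mean signal plus 1 in isoxaben (vertical) against control cultures (horizontal) for all probe sets in grey and the 30 in red, on log axes with n = 3 arrays a group. Dashed lines stand at the limits of 100 and 25, which apply to every array and not to the means, the solid line marks equal signal, and grey points among the red are probe sets that are unnamed here, stand for several genes, were left out by name or missed a limit on 1 or more arrays.

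The limits cut through a continuous range of signals. Just inside the control limit, the lowest control signals were 101.0 for AT1G35190, 117.6 for CCR2 and 122.2 for AT3G25640. Just outside it, with isoxaben signals under 25, were AT3G14280 at 99.1, AT3G50580 at 98.5 and AT2G46940 at 93.0. Just inside the isoxaben limit, the highest isoxaben signals were 23.9 for CCR2, 23.8 for AT1G66880 and 23.6 for AT5G46230. Just outside it, with control signals of at least 100, were AT4G11000 at 25.3, AT3G07350 at 25.7 and AT1G19200 at 25.9. With limits of 80 and 30, 59 probe sets of 1 gene met the rule, and with limits of 150 and 20 there were 13.

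Without isoxaben array 1, whose source name carries another code, 36 probe sets met the limits. The 6 that this array alone kept out included AT1G51850, at 35.7 on that array and 22.8 and 19.4 on the other isoxaben arrays, and the subtilase gene SBT3.5, at 36.1 against 19.1 on both others. Among the 30, isoxaben array 1 was the lowest of its group for 12, the highest for 8, and between or equal for 10. The median change of the set was -3.37 without it, against -3.35 with it.

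Control array 1 decided more of the membership than any other array. Without it 40 probe sets met the limits, and the 10 that it kept out included AT4G31875 (87.0 on that array, 161.2 and 171.9 on the others), AT2G32030 (84.7, then 147.3 and 156.2) and AT1G12030 (50.3, then 120.2 and 108.4). Leaving out any 1 of the other control or isoxaben arrays, isoxaben array 1 apart, gave 31 or 32 probe sets. Within the second title set alone, 46 met the limits. With fewer arrays fewer signals have to meet the limits, so leaving arrays out can only keep or raise the count. The median change of the set was -3.44 without control array 1. It was -3.21 in the first title set, which has 1 array a group, and -3.46 in the second.

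Among the 30, control array 1 was the lowest control for 21, the highest for 7 and in between or equal for 2. Of the 6120 other probe sets that reached 100 on every control array, it was the lowest for 52.9% and the highest for 34.9%. The median ratio of control array 1 to the mean of the other control arrays was 0.814 in the set and 0.949 in those others. A ratio under 0.65 was shown by 4 of the 30 (AT1G19020, AT1G72070, AT3G03150 and AT3G25640), which is 13.3%, and by 3.97% of the others. A ratio above 1.3 was shown by AT1G13470 and AT1G76070, or 6.67%, and by 9.23% of the others. The gap between control arrays 2 and 3, which share a title set, had a median of 6.66% of their mean in the set and 5.84% over all 6150. The part of the title set and of the outlier cells of control array 1 in these differences was not tested, and the difference between the set and the others was not tested either.

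**Figure D3:**
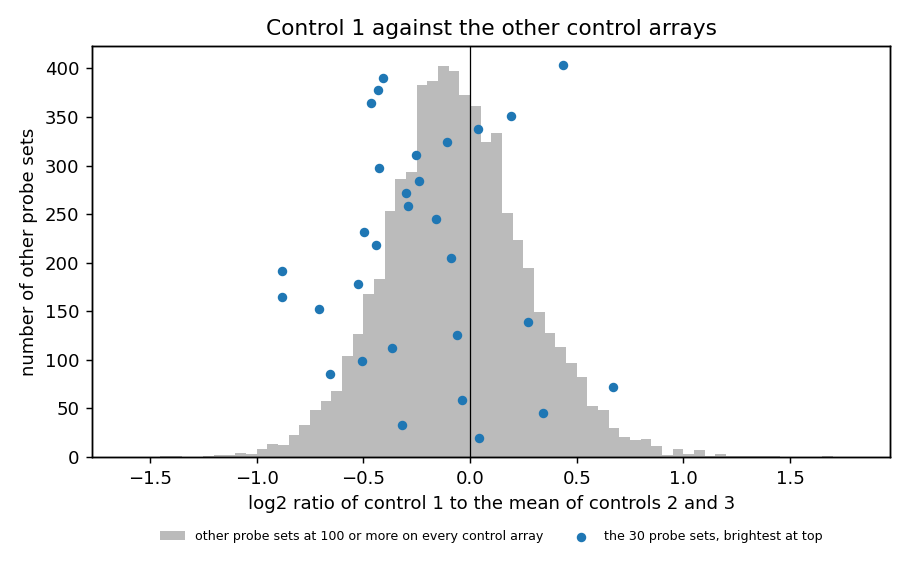
Log2 ratio of control array 1 to the mean of control arrays 2 and 3, as a grey histogram of the 6120 other probe sets with signals of at least 100 on every control array and as blue points for the 30, stacked by falling control signal. Most blue points lie left of 0, where control array 1 was lower (median ratio 0.814, against 0.949 for the grey ones).

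The 29 genes were spread over the 5 chromosomes by their loci, with 12 on chromosome 1, 2 on chromosome 2, 8 on chromosome 3, 1 on chromosome 4 and 6 on chromosome 5. The corresponding shares of all probe sets with a named nuclear locus were 25.7%, 16.4%, 20.4%, 14.6% and 22.4%. No gene of the set lay next to another in the RefSeq order of protein-coding genes of the TAIR10.1 assembly. The 58 adjacent genes were not chosen by their signals, so they could be tested, and 28 had a probe set named here.

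Of these 28 adjacent genes, 8 stayed under 25 on all arrays and 19 passed the filter on dim probe sets. With isoxaben 5 of the 19 fell and 1 rose (limma, Benjamini-Hochberg adjusted p under 0.05), so 26.3% fell, where 27.2% of all tested probe sets did. The share that rose was 5.26%, against 29.4% of all. The median change on the log2(signal + 16) scale was -0.08. The number that fell was 3 without isoxaben array 1, where AT1G08315 (limma adjusted p = 0.0617) and AT3G48070 (0.0664) no longer passed, and also 3 without isoxaben array 2. With the replicate block AT1G74350 was called lower (-0.76, limma adjusted p = 0.0487) and AT3G45740 higher (0.46, 0.00354). The number that rose was 4 without control array 1 or within the second title set. It was 2 without control array 2 or isoxaben array 1, with quantile normalization and with the filter at the 60th percentile. It was also 2 with the replicate or title set block. Without control array 1, AT1G19010 (0.4, limma adjusted p = 0.0187), AT1G19025 (0.41, 0.027) and AT1G74370 (0.37, 0.0413) were also called higher. AT1G66890 was also called lower without that array (-0.51, limma adjusted p = 0.0285). Without isoxaben array 1, AT3G45740 was called higher (0.58, limma adjusted p = 0.0367).

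The adjacent gene that fell most was AT1G72060, beside AT1G72070. Its signals were 187.8, 132.2 and 143.8 in control and 27.5, 24.6 and 24.5 with isoxaben, and isoxaben array 1 alone kept it outside the limits. Its change on the log2(signal + 16) scale was -2.03 ± 0.14 (SE; limma adjusted p = 2.14e-06), beside -2.72 for AT1G72070. Unlike AT1G72070, AT1G72060 had its highest control signal on array 1.

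Both neighbours of SAL2 fell as well. AT5G63990 gave 173.7, 177.4 and 179.1 in control and 70.4, 73.2 and 80.2 with isoxaben, a change of -1.09 ± 0.11 (SE; limma adjusted p = 1.71e-05). AT5G64010, named after its values were seen, gave 173.5, 163.2 and 167.1 in control and 102.9, 131.5 and 109.1 with isoxaben, a change of -0.50 ± 0.12 (SE; limma adjusted p = 0.00494). The groups did not overlap for either gene, and neither came near background. The change of SAL2 on the same scale was -3.96.

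The adjacent gene that rose was AT3G57940, beside AT3G57950. AT3G57940 gave 36.5, 35.6 and 45.5 in control and 184.3, 134.3 and 147.9 with isoxaben, a change of 1.63 ± 0.14 on the log2(signal + 16) scale (SE; limma adjusted p = 8.1e-06). AT3G57950 changed by -3.39 on that scale, so these neighbours went opposite ways. Next to ZCF37, ZCW7 gave a mean of 86.8 ± 9.7 (SD, n = 3) in control and 99.2 ± 22.7 with isoxaben and did not pass (0.15 ± 0.15 SE, limma adjusted p = 0.436).

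**Figure D4:**
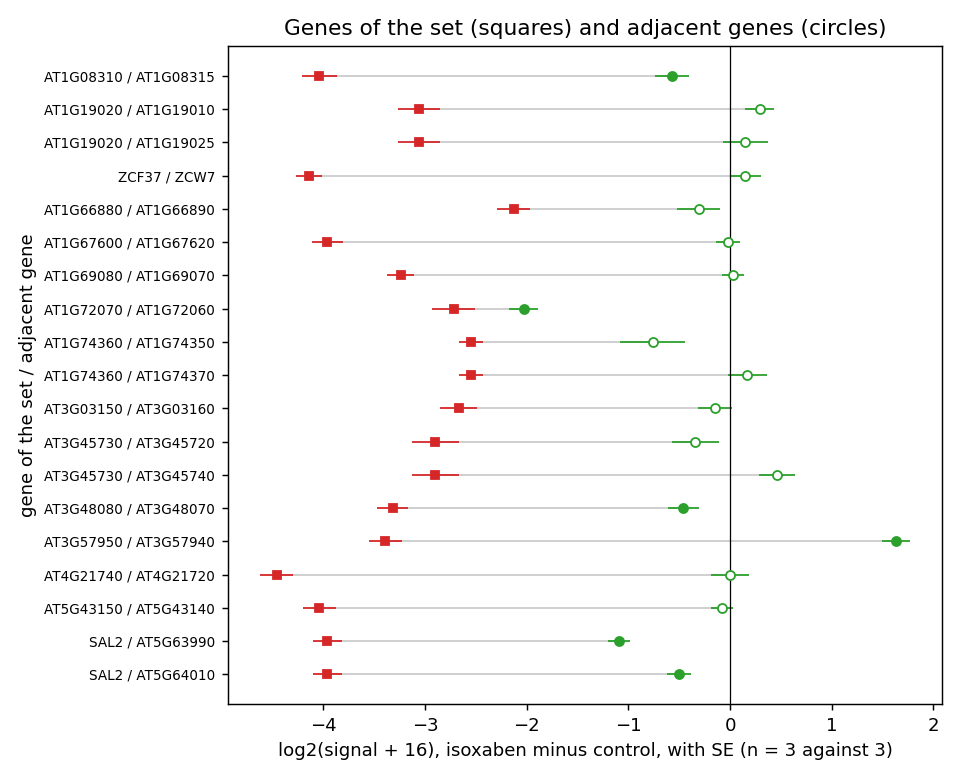
Change on the log2(signal + 16) scale, isoxaben minus control, of genes of the set with a tested adjacent gene (red squares) and of that adjacent gene (green circles, filled where limma's adjusted p was under 0.05), with SE bars and n = 3 arrays a group. A gene with tested genes on both sides has a row for each, and genes of the set without a tested adjacent gene are not drawn. The circles of 5 adjacent genes are filled to the left of 0 and 1, AT3G57940, to the right, while every square lies left of its circle.

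The single tested gene that shared the letters of its name with a member was ZCF125, whose locus lies on chromosome 1 like that of ZCF37. ZCF125 gave 14.5, 17.7 and 18.1 in control and 88.7, 62.7 and 74.2 with isoxaben. It rose by 1.47 ± 0.15 on the log2(signal + 16) scale (SE; limma adjusted p = 2.3e-05), and its control signals were below the filter signal of 22.1, so the size of the rise depends on the pseudocount. A shared name is no evidence of a shared function.

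Genes were also read from 9 lists of pathway and response loci drawn up from background knowledge. Most of these lists cover pathways other than those given above for SAL2 and CCR2, and none was of lignin genes. Of 140 listed genes, 20 had a probe set named here, 19 were tested and none was among the 29. With isoxaben 6 of the 19 fell, or 31.6%, and 4 rose, or 21.1%, beside 27.2% and 29.4% of all tested probe sets. The number that rose was 2 without isoxaben array 1 or 2 and 6 with the replicate block or the title set block, and 7 fell with either block. Without control array 1, 5 rose and 7 fell. The lists of phosphate starvation and of jasmonate genes had no named probe set.

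On the list of inositol phosphate and raffinose metabolism, to which the SAL phosphatases belong, 2 of 4 tested genes fell and none rose. They were AT5G63990, given above, and AT5G09290, which went from 59.4 ± 12.0 (SD, n = 3) to 19.0 ± 5.5 and changed by -1.11 ± 0.17 (SE; limma adjusted p = 0.000421). HL, a phosphatase gene of the same list, changed by 0.17 ± 0.16 and VTC4, of the inositol and ascorbate route, by -0.13 ± 0.16, and neither passed. VTC4 was called lower without control array 1 (-0.32, limma adjusted p = 0.0217). The median of the list was -0.61.

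On the list of sulfate assimilation, a branch of which yields phosphoadenosine phosphates, the directions differed among 3 tested genes. APS4, an ATP sulfurylase, went from 790 ± 154 (SD, n = 3) to 481 ± 33.1 and fell (-0.68 ± 0.15 SE, limma adjusted p = 0.00278). APS3, of the same enzyme family, went from 48.9 ± 10.1 to 77.2 ± 11.7 and rose (0.53 ± 0.16 SE, limma adjusted p = 0.0168). The call of APS3 was lost without isoxaben array 1 (limma adjusted p = 0.0628), without isoxaben array 2 (0.0662) and with arrays centred on their medians (0.0515). SIR, the sulfite reductase, did not reach the threshold (0.41 ± 0.19, limma adjusted p = 0.0999), yet it passed as higher with the replicate block (limma adjusted p = 0.0135), with the title set block (0.00556) and without control array 1 (0.64, 0.00104).

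Among senescence-associated genes, 2 of 4 fell and 1 rose. SAG101, a lipase-like protein of senescence and immunity, went from 259 ± 44.1 (SD, n = 3) to 95.2 ± 14.0 and fell (-1.30 ± 0.15 SE, limma adjusted p = 4.46e-05). WRKY53, a senescence transcription factor, went from 97.3 ± 24.5 to 30.3 ± 3.77 and fell (-1.27 ± 0.18 SE, limma adjusted p = 0.000173). SAG29, a sugar transporter gene of ageing tissue, went from 7.03 ± 5.07 to 68.9 ± 4.01 and rose (1.90 ± 0.18 SE, limma adjusted p = 1.3e-05), from a control level below the filter signal. WRKY6 did not pass (-0.35 ± 0.18, limma adjusted p = 0.124), but was called lower with the replicate block (limma adjusted p = 0.0139), with the title set block (0.00575) and without isoxaben array 1 (-0.55, 0.0158).

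Of 5 tested genes induced by sugar starvation or darkness, 2 rose and none fell. MCCB, a subunit of the carboxylase that breaks down leucine, went from 148 ± 9.74 (SD, n = 3) to 221 ± 30.8 and rose (0.52 ± 0.12 SE, limma adjusted p = 0.00523). IVD, a dehydrogenase of the same pathway, changed by 0.28 ± 0.10 (limma adjusted p = 0.0421), and its call was lost without any 1 of the 6 arrays (limma adjusted p 0.0571 to 0.119) and with arrays centred on their medians (0.211). MCCA, AKINBETA1 and BZIP53 did not pass. BZIP53 (0.23) was called higher with the replicate block (limma adjusted p = 0.0395) and the title set block (0.0177). AKINBETA1 (0.03) was called higher without control array 1 (0.39, limma adjusted p = 0.0312). EIN3, a transcription factor of ethylene signalling and the only tested gene of its list, went from 374 ± 9.05 to 289 ± 18.6 and fell (-0.35 ± 0.10 SE, limma adjusted p = 0.0127). That call was lost without isoxaben array 3 (limma adjusted p = 0.0578). COR47, of the dehydration list, and DFR, of the flavonoid list, were each the only tested gene of their list and did not pass (0.00 ± 0.17 and 0.12 ± 0.22). Of the 6 listed genes that fell, 5 kept a mean signal above 25 with isoxaben, and AT5G09290 did not.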

How the data were processed

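RNA of 3 control and 3 isoxaben samples of cultured cells was hybridised to 1 ATH1 array each. The deposited table gives a linear signal intensity per probe set, which the authors had already scaled to an equal trimmed mean on each array; the algorithm and the scale's unit are not given in the sources used here. Groups came from the titles. The 64 control probe sets were left out. Limma 3.58.1 in R 4.3.3 (lmFit, eBayes with an intensity trend, two-sided) was run on log2(signal + 16) for the 13648 probe sets at or above the 40th percentile of the mean (a signal of 22.1), with Benjamini-Hochberg adjustment over all of them and a threshold of 0.05, and was tested on simulated data. Calls of members are not used as evidence.

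Gene names came from the platform annotation, updated through gene identifiers with RefSeq's TAIR10.1 table (13436 of 13513 probe sets of 1 gene matched; 8730 are unnamed here and 503 stand for several genes). Signals of different probe sets were set side by side only to describe brightness, as probes differ in efficiency. The brightest probe set stood for a listed gene.

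The members, lists and limits were chosen with earlier results of these data known, and the adjacent genes and the reading of control array 1 were added after values had been seen. Every member was named, as were the 3 genes on each side of each limit and up to 3 called genes of each list with the smallest p. Others were chosen after their values were seen. Same-numbered arrays deviated together from their group means (correlations across probe sets of 0.207, 0.110 and 0.128), as did different-numbered arrays of the second title set (0.101 and 0.118). Arrays of different title sets deviated in opposite directions (-0.185 to -0.138). The correlations thus followed the title set, with little difference by replicate number within the second. Deviations cancel out within a group, so these values are not independent. Both a replicate block and a title set block were run as alternatives. Promoter motifs and sequences were not analysed here.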

Additional observations from a re-analysis of the deposited data

How the results depend on the processing

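The number of arrays and the lack of detection calls limit what can be said below a signal of 25. The number of probe sets meeting the limits, 30, became 32 with arrays scaled to a common median and 31 with quantile normalization, but 59 with limits of 80 and 30, 13 with limits of 150 and 20, and 46 within the second title set. Leaving out 1 array gave 31 to 40. The counts from fewer arrays, the second title set included, could only stay at 30 or rise. The median change of the members, -3.35, was -4.97 with a pseudocount of 1 and -2.12 with 64, stayed between -3.21 and -3.46 under the other alternatives, and was -3.26 to -3.44 with 1 array left out. All 30 members passed the filter on dim probe sets, 29 with a pseudocount of 1 (all but AT3G57950) and 20 with the filter at the 60th percentile.

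Over all probe sets, 4011 were higher and 3715 lower. With the replicate block the counts were 4250 and 3913. It added the calls of SIR, BZIP53, WRKY6, AT1G74350 and AT3G45740 given above, with no call of a listed, name-sharing or adjacent gene lost. With the title set block the counts were 4510 and 4144, and AT1G66890 was called lower as well (-0.31, limma adjusted p = 0.0473). The counts were lowest with the filter at the 60th percentile (2952 and 2974) and highest within the second title set (4819 and 4212). Without control array 1 they were 4582 and 3868. The 4 higher listed genes became 2 with the filter at the 60th percentile, which tests fewer genes, 2 with arrays centred on their medians, 7 within the second title set, 6 with the replicate block or the title set block, and 2 to 5 with 1 array left out. The 6 lower ones became 4 with the filter at the 60th percentile, 8 within the second title set, 7 with either block, and 5 to 7 with 1 array left out. The count of 1 higher gene sharing the letters of a member's name, ZCF125, became 0 with the filter at the 60th percentile, which removed it. Of the named genes outside the set, IVD, APS3, EIN3, AT1G08315 and AT3G48070 lost their call under 1 or more alternatives, as given above. Apart from genes that an alternative left out of the fit, the cause of these changes was not tested. The alternatives for promoter motifs were not run.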
